A study of Sus scrofa with 20 samples.

Results

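A set of 100 transcripts, out of 46295 in the deposited table, had higher read shares in LLC-PK1 cells when MRTF-A was silenced on top of polycystin-1 (PC1) and also when it was silenced on top of polycystin-2 (PC2). The set was chosen on these measurements. Each count was divided by its library total and scaled to counts per 1000000 (CPM), and the log2 of CPM plus a pseudocount of 0.5 was averaged per group. A member had a mean of at least 1.3 CPM over the 20 libraries and a rise of at least 0.5 on this scale on adding siMRTF-A in both arms. Its siPC1 mean was less than 0.6 above the siNR mean. In each arm every library with siMRTF-A lay above every library without it, with siPC1 replicate 1 set aside for this order condition. Of the 20292 transcripts at or above 1.3 CPM, 437 met the numeric conditions and 100 of these also met the order condition. The higher values after adding siMRTF-A are therefore a description of the choice and not a result.

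LLC-PK1 is an established pig proximal tubule epithelial line. Cells received 200 nM of a non-related control siRNA (siNR), 150 nM siPC1, 100 nM siPC2, siPC1+siMRTF-A or siPC2+siMRTF-A, were serum-starved, and were assayed 48 h after transfection. There were 4 siNR, 5 siPC1, 4 siPC1+siMRTF-A, 3 siPC2 and 4 siPC2+siMRTF-A libraries, made from poly(A) RNA. These group sizes follow the labels and differ from those in the study's figure legend. A siPC1 library is labeled A2 in place of a plain number, and its relation to the numbered libraries is not given. No group received siMRTF-A without a polycystin siRNA, so its effect in cells with both polycystins was not measured here. The sources used here give different doses of siMRTF-A. The study states that control siRNA was dose-matched within experiments, but gives no total siRNA for each of these groups. If totals differed, the amount of siRNA and the loss of its target cannot be told apart. An effect of the amount was not tested.

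PC1 and PC2, the products of PKD1 and PKD2, are membrane proteins whose loss causes autosomal dominant polycystic kidney disease. MRTF-A is a transcriptional coactivator held in the cytosol by monomeric G-actin. When RhoA signaling polymerizes actin, it is freed, enters the nucleus and works with serum response factor on genes of the cytoskeleton and extracellular matrix. A coactivator is best known for genes that fall when it is silenced, whereas the transcripts described here have the opposite sign.

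Library totals ran from 4421001 estimated counts in siPC1 replicate 1 to 71007731 in one siPC2+siMRTF-A library, with siPC2 replicate 2 next to the bottom at 11790504 and all others at 22874625 or more. In siPC1 replicate 1, 13 members were at 0, where the other siPC1 libraries imply between 3.30 and 92.2 reads (median 10.1, above 10 for 7 members). In siPC2 replicate 2, 4 members were at 0, and in every other library at most 2 were. Transcripts could not be paired with genes in the tables used here. The members therefore carry identifiers in place of gene names, and neither the knockdown of the siRNA targets nor the proximal tubule markers could be checked.

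The members ranged from 1.49 to 909 mean CPM, with a median of 9.47 and quartiles of 4.24 and 25. All 20292 transcripts above the minimum had a median of 15.8. There were 28 members under 5 CPM and 12 over 50 CPM. CPM is a read share that is not corrected for transcript length, so it does not rank members by abundance. In the siPC1 arm the rise ran from 0.51 to 2.19 (median 0.78) and in the siPC2 arm from 0.51 to 4.19 (median 0.63). It was larger in the siPC1 arm for 63 members and in the siPC2 arm for 37, and 9 members rose by at least 1 in both.

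The conditions cut through a continuous range of values, and the members do not hold its largest rises. Among all 20292 transcripts above the CPM minimum, rises reached 5.33 when siMRTF-A was added to siPC1, against 2.19 among members. When siMRTF-A was added to siPC2 they reached 5.46, against 4.19 among members. The value nearest each threshold was 1.49 inside and 1.25 outside for the mean CPM, 0.507 inside and 0.497 outside for the rise in the siPC1 arm, 0.506 inside and 0.499996 outside for the rise in the siPC2 arm, and 0.60 inside and 0.66 outside for siPC1 minus siNR. Transcripts that missed only 1 condition numbered 21, 42, 77 and 59, in the same order. Of the 337 that failed only the order of libraries, 63 failed it in the siPC1 arm, 24 in the siPC2 arm and 250 in both.

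For most members the rise did not rest on the shallowest library. Without siPC1 replicate 1, 91 of the 100 members met all conditions and the median rise in the siPC1 arm was 0.74. That library lay below every siPC1+siMRTF-A library for 92 members. It was set aside in the order condition but entered the siPC1 mean behind the rise, so its position is partly fixed by the choice. Taken within each replicate number, the median of the members rose by 0.84, 0.74, 0.72 and 0.77 in the siPC1 arm (numbers 1 to 4) and by 0.72, 0.60 and 0.64 in the siPC2 arm (numbers 2 to 4). These medians restate the selected rise by library, since the order condition places every other library of the siPC groups below those with siMRTF-A, and the numbers are not known to pair cultures.

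**Figure D1:**
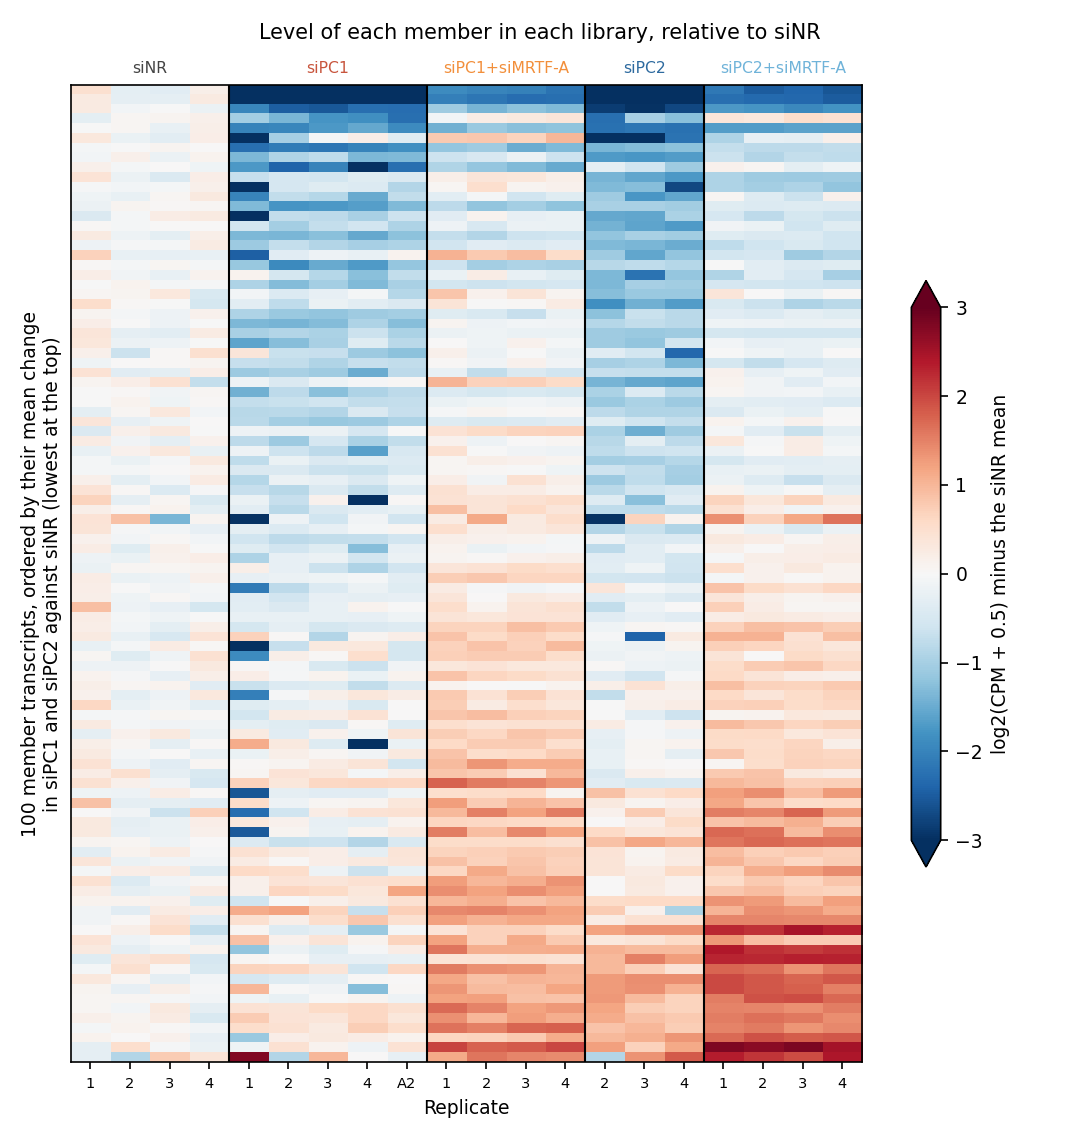
Each row is 1 of the 100 members and each column 1 of the 20 libraries. Color is log2(CPM + 0.5) minus the siNR mean of that member. The columns with siMRTF-A are higher than those of the matching siPC group, as the rule demands of all libraries but siPC1 replicate 1, while the color against siNR differs from row to row.

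The level relative to control cells is given here as a description, since the rule capped siPC1 against siNR and selected low siPC and high siMRTF-A libraries. Their summed share was between 3022 and 3637 CPM in the siNR libraries, 2099 to 2274 in siPC1, 2405 to 2564 in siPC2, 3593 to 3867 in siPC1+siMRTF-A and 3748 to 4268 in siPC2+siMRTF-A. The sums of the siPC1 and siPC2 libraries did not overlap with those of siNR. A single member held 713 to 919 CPM of the sum in siNR, 568 to 781 in siPC1 and 743 to 900 in siPC2. The sums therefore weigh the members unequally. In whole-culture RNA, fewer cells expressing a transcript and less of it per cell cannot be told apart.

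The typical member was below the siNR libraries in both siPC groups, as the sums were. With siMRTF-A it was higher in the siPC1 arm, whereas the sums tended to be higher in the siPC2 arm. The median log2 difference of the members from the siNR mean was between -0.51 and -0.28 in the siPC1 libraries and between -0.44 and -0.32 in the siPC2 libraries. It was between 0.41 and 0.46 in siPC1+siMRTF-A and between 0.19 and 0.37 in siPC2+siMRTF-A. On this scale the median of all expressed transcripts itself lay between -0.07 and 0.29, so the siPC2+siMRTF-A members were little above it. The median siPC2+siMRTF-A minus siNR difference was 0.25 for the members and 0.19 for all expressed transcripts. For siPC1+siMRTF-A it was 0.45 against 0.15, for siPC1 -0.42 against 0.13, and for siPC2 -0.40 against 0.16.

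**Figure D2:**
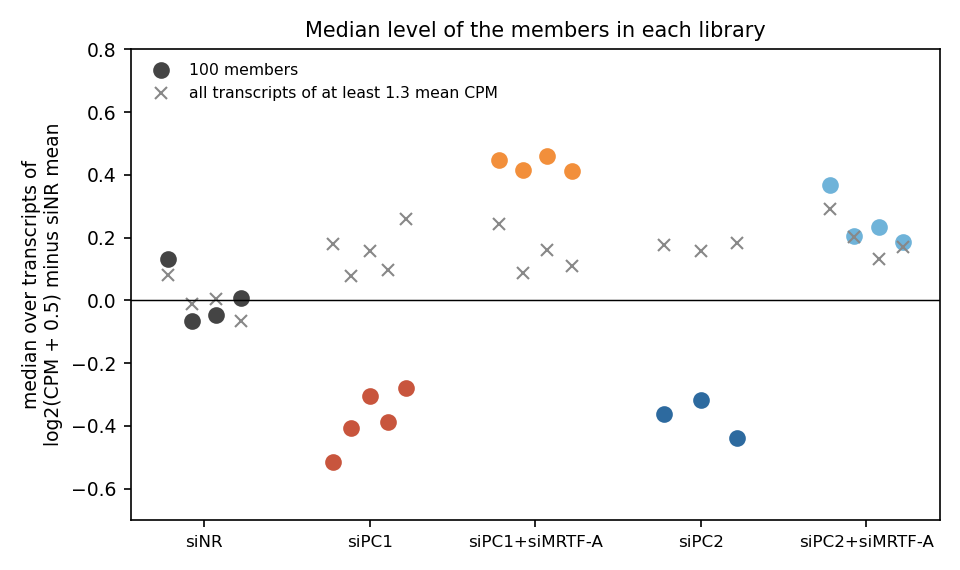
Each point is 1 library, with the median over the 100 members of log2(CPM + 0.5) minus the siNR mean beside the same median over all transcripts of at least 1.3 CPM. The members sit below the siNR libraries in siPC1 and siPC2 (-0.51 to -0.28) and above them in both siMRTF-A groups (0.19 to 0.46).

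The comparison of siPC2 with siNR asks how these transcripts stood when only PC2 was silenced, and it shares the siPC2 libraries with the rule. In edgeR's quasi-likelihood test 44 members were lower than siNR and 12 were higher. A call required an adjusted p no larger than 0.05 over the 27702 transcripts tested, a log2 fold change beyond 0.6, and 50 or more normalized counts on average. Of the 20212 transcripts that reached this count, as all 100 members did, 13.9% were called lower and 16.5% higher. The members' median log2 fold change was -0.53 after TMM scaling. The low siPC2 libraries that make a large rise possible also enter this comparison, so it is not independent of the choice of members.

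In siPC1 against siNR, 38 members were lower and 0 were higher, against 18% and 20.5% of the same transcripts, and the median log2 fold change was -0.57. The rule barred members well above siNR in siPC1, so nothing is read from this split. With no fold threshold 6 members were higher. There were 32 members lower in both comparisons, 6 in siPC1 only, 12 in siPC2 only and 50 in neither, and both comparisons share the siNR libraries. The share of all transcripts with these joint calls was not computed, so nothing is read from the joint counts. Nothing in the labels says that libraries of a group came from separate cultures. The p-values therefore measure the spread between these samples, which may be technical.

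With MRTF-A also silenced, the members stood on both sides of control. In siPC1+siMRTF-A against siNR, 28 were higher and 13 lower, with 20.2% of transcripts called higher and 17.7% lower, and the median log2 fold change was 0.34. Scaled by library totals in place of TMM factors, the same comparison gave 33 higher and 9 lower. In siPC2+siMRTF-A against siNR, 30 were higher and 14 lower, with 17.6% and 14.7% called among all, and the median was 0.07. DESeq2 gave 24 higher and 18 lower there. There were 21 members higher than siNR in both siMRTF-A groups, 7 in siPC1+siMRTF-A only and 9 in siPC2+siMRTF-A only, and 44 were called in neither. The other silenced libraries of each arm chose the members, so these counts carry part of the choice. For the joint counts over both siMRTF-A groups the share of all transcripts was not computed, and nothing is read from them.

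The addition of siMRTF-A was itself called for fewer members than the rule admitted. In siPC1+siMRTF-A against siPC1, 63 of 100 were called higher and 0 lower, beside 1.62% of transcripts called higher and 1.51% lower, with fitted log2 fold changes from 0.52 to 3.15 (median 0.81). In siPC2+siMRTF-A against siPC2, 43 were higher and 0 lower, beside 0.91% called higher and 1.27% lower, with values from 0.50 to 3.5 (median 0.69). Both comparisons chose the members, and nothing is read from these counts. The second count fell to 28 without siPC2 replicate 3 and to 26 without replicate 4.

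Taken by their calls against siNR before and after adding siMRTF-A, the members of the siPC1 arm fell into several patterns. A group of 24 was lower than control in siPC1 and not called in siPC1+siMRTF-A (median log2 fold change from -0.92 to -0.13), a sequence shown by 3.67% of the 20212 transcripts. Another 27 were not called in siPC1 and higher in siPC1+siMRTF-A (median from 0.01 to 1.09, 3.31% of all). A further 13 stayed lower than control in both (median from -1.83 to -1.23, 14.4% of all), and 35 were called in neither (median from -0.44 to 0.34, 54.8% of all). The last member was lower in siPC1 and higher in siPC1+siMRTF-A, the only transcript of the 20212 called in this order (0.00495%). The rise between each pair of values comes from the rule, whereas the level from which it starts was bounded only from above.

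The member with the highest read share among those lower in siPC1 and not called in siPC1+siMRTF-A had 231, 197, 215 and 197 CPM in the siNR libraries and 139, 122, 125, 128 and 140 in siPC1. It had 238, 231, 224 and 203 CPM in siPC1+siMRTF-A, inside and just above the siNR range, whereas no siPC1 library reached that range. Its log2 fold change against siNR was -0.83 in siPC1 and -0.02 in siPC1+siMRTF-A. In the other arm it had 187, 156 and 157 CPM in siPC2 and 258, 246, 220 and 237 in siPC2+siMRTF-A.

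Among the members lower in both groups, the one with the highest read share had 205, 142, 141 and 206 CPM in siNR and only 13.2, 10.8, 7.78, 9.29 and 12.1 in siPC1. With siMRTF-A it had 40.9, 37.3, 34.8 and 35.3 CPM, above every siPC1 library and below every siNR library. In the siPC2 arm it behaved alike, with 17.9, 15.8 and 15.4 CPM in siPC2 and 35.3, 33.5, 32.9 and 29.9 in siPC2+siMRTF-A. Its log2 fold change from siNR was -4.20 in siPC1 and -2.34 in siPC1+siMRTF-A. Most of the difference from control remained after MRTF-A was silenced.

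A member that was not called in siPC1 and higher in siPC1+siMRTF-A had 70.0, 47.7, 50.6 and 50.6 CPM in siNR and 64.7, 55.7, 61.7, 66.5 and 69.5 in siPC1, ranges that overlap. It had 101, 87.0, 97.3 and 88.3 CPM in siPC1+siMRTF-A, above every library of both other groups. Its log2 fold change from siNR was 0.08 and then 0.66. The sole member that went from lower to higher had 8.58, 6.87, 5.89 and 8.41 CPM in siNR, 4.98, 6.01, 4.94, 5.36 and 5.52 in siPC1, and 11.9, 12.1, 14.1 and 13 in siPC1+siMRTF-A. Its log2 fold changes of -0.60 and 0.66 were both just past the threshold of 0.6, and 1 siPC1 library lay inside the siNR range.

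The siPC2 arm held the same kinds of pattern and one more. There were 30 members lower in siPC2 and not called in siPC2+siMRTF-A (median log2 fold change against siNR from -1.12 to -0.37, 2.92% of the 20212 transcripts). Another 18 went from not called to higher (0.15 to 0.82, 3.94% of all), 14 were lower in both (-1.84 to -0.93, 10.9% of all) and 26 were called in neither (-0.44 to 0.36, 62% of all). The additional pattern, 12 members higher than siNR in both groups (1.10 to 1.91, 13.6% of all), had no counterpart in the siPC1 arm, where the rule barred it.

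The member with the highest read share that was lower in siPC2 and not called in siPC2+siMRTF-A had 227, 248, 210 and 238 CPM in siNR, 106, 118 and 108 in siPC2, and 188, 185, 183 and 172 in siPC2+siMRTF-A. These 3 groups did not overlap, and its log2 fold change from siNR was -1.21 and then -0.51. Among those lower in both, the one with the highest read share had 248, 160, 155 and 229 CPM in siNR, 91.7, 89.1 and 91.5 in siPC2, and 134, 133, 132 and 132 in siPC2+siMRTF-A. Its log2 fold change was -1.27 and then -0.74, and all its siPC2+siMRTF-A libraries remained below the lowest siNR library.

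The member with the highest read share of the whole set had 919, 728, 714 and 713 CPM in siNR and 622, 597, 568, 781 and 591 in siPC1. It had 1082, 1022, 1047 and 1045 CPM in siPC1+siMRTF-A, 900, 743 and 836 in siPC2, and 1467, 1346, 1189 and 1269 in siPC2+siMRTF-A. It was called in neither group of the siPC1 arm, where 4 of 5 siPC1 libraries were below all siNR libraries. In the siPC2 arm it was not called in siPC2 (log2 fold change -0.04) and higher in siPC2+siMRTF-A (0.62).

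Across the arms, 14 members went from lower to not called in both, 11 from not called to higher in both, 8 were lower in all 4 comparisons and 17 were called in none. A group of 9 that went from not called to higher in the siPC1 arm was higher in both groups of the siPC2 arm. Another 11 that were called in neither group of the siPC1 arm went from lower to not called in the siPC2 arm. The comparisons with siNR share its libraries, and the share of all transcripts with these joint patterns was not computed. The joint counts are therefore given only as a description.

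**Figure D3:**
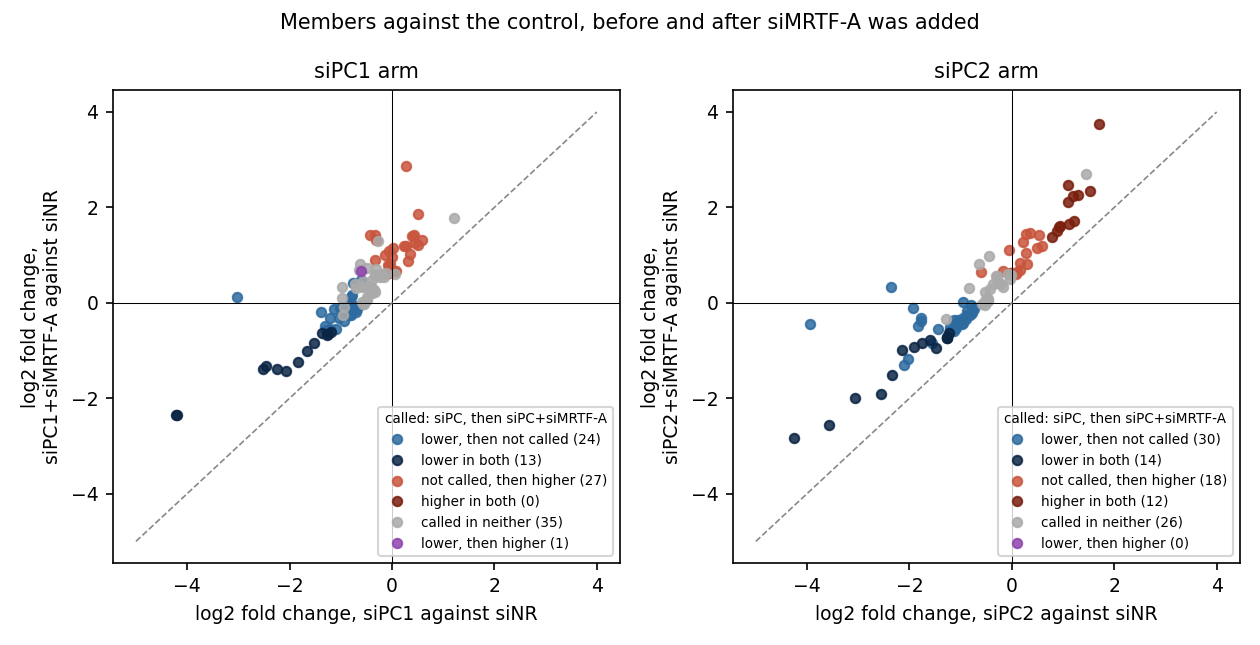
Each point is 1 member, with its log2 fold change of the siPC group against siNR on the horizontal axis and that of the siPC+siMRTF-A group against siNR on the vertical axis, in 1 panel for each arm. All members lie above the diagonal, as the rule demands; color gives the calls, with 24 members lower and then not called in the siPC1 panel and 30 in the siPC2 panel.

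The 4 transcripts with identifiers below show how these patterns look in single libraries. ENSSSCT00000088921.1 had the largest of the members' smaller rises. It had 30.9, 21.5, 19.9 and 28.4 CPM in siNR (mean 25.2 ± 5.31, SD, n = 4) and 0, 0 and 4.92 in siPC2. It had 12.8, 21.0, 20.6 and 27.4 CPM in siPC2+siMRTF-A, so the siPC2 libraries were below all those of siNR and siPC2+siMRTF-A, which overlapped with each other. In edgeR's quasi-likelihood test siPC2 was lower than siNR by a log2 fold change of -3.95 (SE 0.95, adjusted p = 0.00286), and siPC2+siMRTF-A differed from siNR by -0.45 (adjusted p = 0.675). Since both other siPC2 libraries were at 0, the size of the siPC2 difference from siNR rests on the 142 estimated counts of siPC2 replicate 4 alone. It was -3.28 without siPC2 replicate 3, and no fold is given without replicate 4.

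The siPC1 arm of ENSSSCT00000088921.1 was less even. It had 0, 12.2, 23.7, 28.3 and 19.1 CPM in siPC1 and 43.3, 43.9, 39.6 and 49.6 in siPC1+siMRTF-A. The 0 is in siPC1 replicate 1, and without that library the rise in this arm was 1.12 in place of 2.19. By edgeR the log2 fold change of siPC1+siMRTF-A against siPC1 was 1.34 (SE 0.67, adjusted p = 0.278) and was not called. Against siNR, siPC1 was at -0.64 (adjusted p = 0.475) by the same test. Its counts were whole numbers in only 3 libraries, which means that Salmon divided reads between this transcript and others. The part of that division in the zeros of 1 siPC1 and 2 siPC2 libraries was not tested.

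ENSSSCT00000050577.2 had the second largest smaller rise, at a far lower read share. It had 1.46, 1.96, 2.01 and 2.16 CPM in siNR, 0.68, 0.42, 0.20, 0.17 and 0 in siPC1, and 0, 0.69 and 0.50 in siPC2. With siMRTF-A it had 1.74, 2.30, 2.40 and 2.58 CPM in the siPC1 arm and 2.57, 2.45, 2.94 and 2.78 in the siPC2 arm. Both siPC groups were below every siNR library, siPC1+siMRTF-A overlapped with siNR, and siPC2+siMRTF-A lay above it.

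By edgeR, ENSSSCT00000050577.2 was lower than siNR in siPC1 by a log2 fold change of -3.03 (SE 0.78, adjusted p = 0.00348) and in siPC2 by -2.36 (SE 0.89, adjusted p = 0.0448). The second call is marginal: without siPC2 replicate 2 the log2 fold change was -1.85 and it was no longer called, and it was also lost on leaving out any one of 13 other libraries. Against siNR, siPC1+siMRTF-A was at 0.12 (edgeR adjusted p = 0.926) and siPC2+siMRTF-A at 0.33 (adjusted p = 0.786). The value rests on between 0 and 25.4 estimated reads in each siPC1 or siPC2 library and on 54.5 to 174 in each other library, so its low values carry large counting error. Its counts were whole numbers in only 2 libraries, both at 0, so Salmon divided reads between this transcript and others. The part of that division in its low values was not tested.

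ENSSSCT00000053002.2 had the lowest fitted log2 fold change of siPC2 against siNR of all members in edgeR, whereas on the log2(CPM + 0.5) scale ENSSSCT00000088921.1 was lower (-4.51 against -3.47). It had 19.2, 11, 10.7 and 15.4 CPM in siNR (mean 14.1 ± 4.04, SD, n = 4), 0.23, 0.70, 0.66, 1.11 and 1.14 in siPC1 and 0.59, 0.82 and 0.97 in siPC2. With siMRTF-A it had 3.32, 3.09, 2.98 and 2.58 CPM in the siPC1 arm and 2.71, 2.0, 2.22 and 1.89 in the siPC2 arm. All 4 siMRTF-A libraries of each arm were above the siPC libraries and far below the lowest siNR library.

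The log2 fold change of ENSSSCT00000053002.2 against siNR was -4.22 in siPC1 (SE 0.29, edgeR adjusted p = 1.09e-09) and -4.26 in siPC2 (SE 0.35, adjusted p = 3.13e-08). It was -2.34 in siPC1+siMRTF-A (edgeR adjusted p = 1.77e-06) and -2.83 in siPC2+siMRTF-A (adjusted p = 2.86e-07). Its counts were whole numbers in 19 of 20 libraries, so almost no reads were divided with other transcripts.

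**Figure D4:**
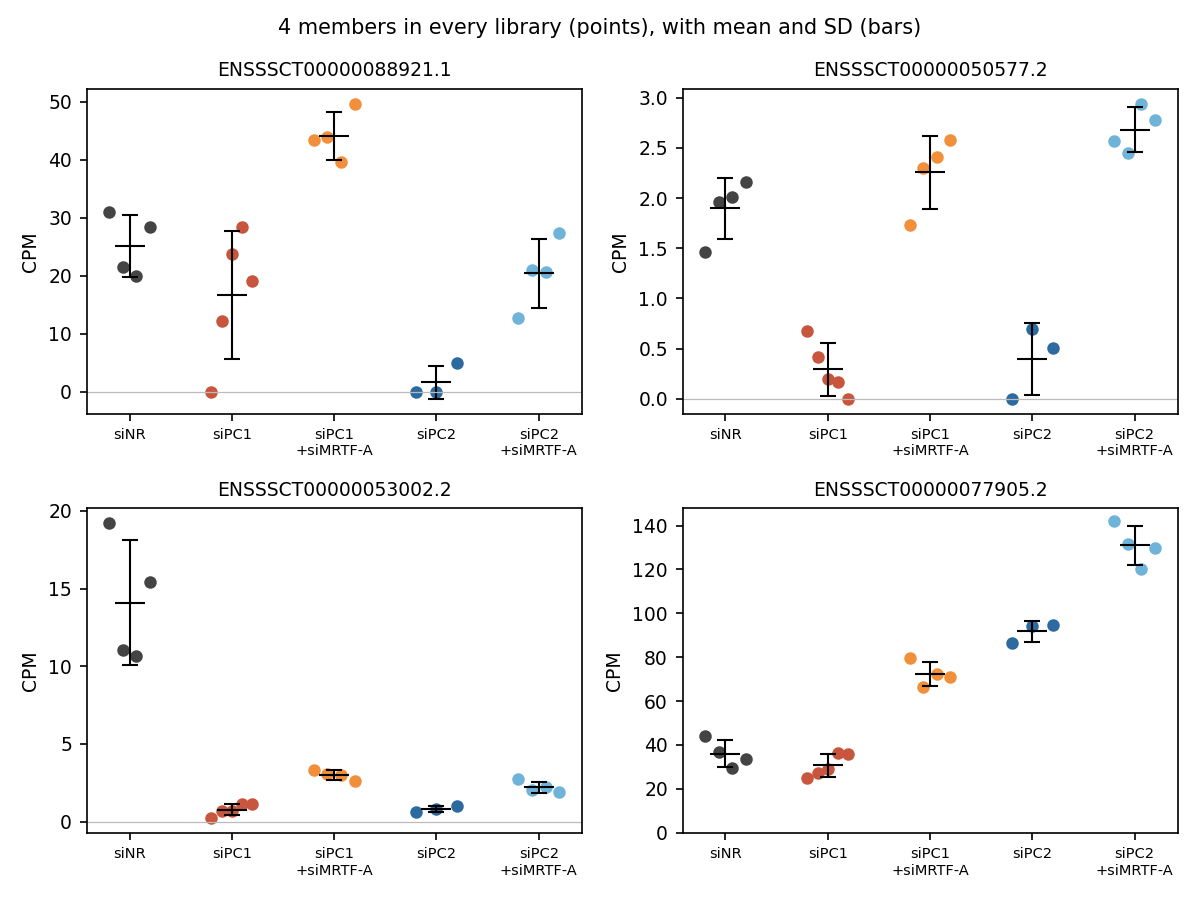
CPM of the 4 transcripts with identifiers in each of the 20 libraries, by group, with 1 panel for each transcript. Points are libraries and bars give the group mean and SD. ENSSSCT00000053002.2 falls from 10.7 to 19.2 CPM in siNR to at most 1.14 in the siPC groups and reaches at most 3.32 with siMRTF-A, whereas ENSSSCT00000077905.2 is highest in siPC2+siMRTF-A.

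The arms can be compared directly, since siPC1 against siPC2 and siPC1+siMRTF-A against siPC2+siMRTF-A share no libraries. In siPC1 against siPC2, 12 members were higher in siPC1 and 16 lower by edgeR's quasi-likelihood test, with 7.68% and 7.92% of all 20212 transcripts called. Without both shallow libraries the split was 17 higher and 15 lower. Between the siMRTF-A groups, 11 were higher in siPC1+siMRTF-A and 9 lower, with 3.55% and 4% called among all. Of the 12 higher in siPC1, 6 were also higher in siPC1+siMRTF-A, and of the 16 lower in siPC1, 9 were also lower in siPC1+siMRTF-A. There were 0 members called in opposite directions and 5 called between the siMRTF-A groups only. The share of all transcripts with these joint calls was not computed, so they are not read as particular to the members.

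The sign of the difference between arms was the same with and without siMRTF-A for 86 of 100 members. Across members, which are not independent replicates, Pearson's r of these log2 fold changes was 0.87 and Spearman's rho 0.86. Over all 20212 transcripts r was 0.42 and rho 0.73. The members were selected for a rise in both arms, so the closer relation among them is given as a description. The share of all transcripts with the same sign was not computed.

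**Figure D5:**
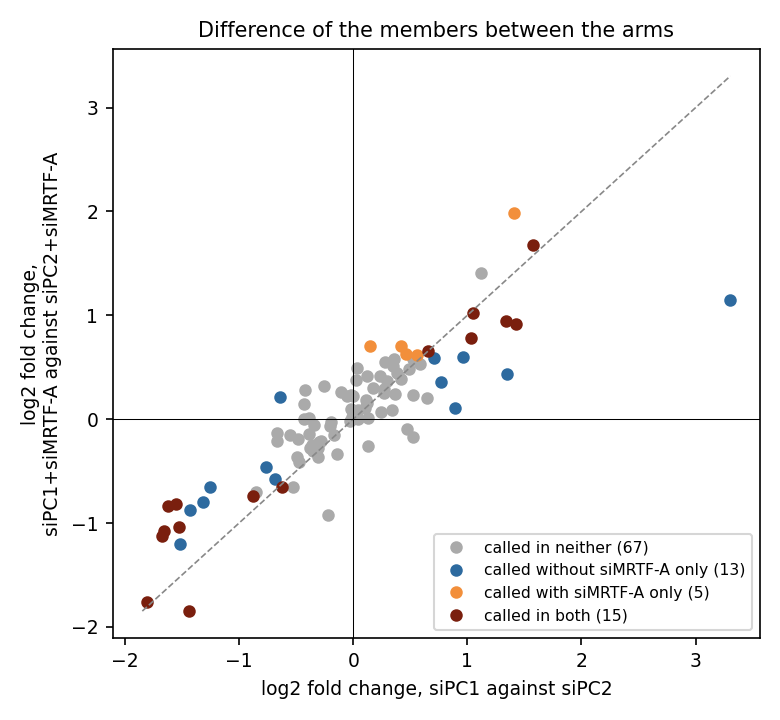
Each point is 1 member, with the log2 fold change of siPC1 against siPC2 on the horizontal axis and of siPC1+siMRTF-A against siPC2+siMRTF-A on the vertical axis. Color gives the calls: 67 members were called in neither, 13 without siMRTF-A only, 5 with siMRTF-A only and 15 in both, and 86 have the same sign on both axes.

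The difference between arms in the effect of adding siMRTF-A was also examined, although the members were admitted only with a rise of at least 0.5 and separate libraries in both arms, which conditions it towards likeness. The edgeR model called 1 member, larger in the siPC1 arm, beside 0.406% of the 20212 transcripts. At an unadjusted p under 0.05 there were 11 members, and DESeq2 called 4. The median absolute difference between arms was 0.23 on the log2 scale and exceeded 0.6 for 10 members. A test that called 1 member does not show that the other rises were equal.

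That member, ENSSSCT00000077905.2, is named because it was the sole call, and was chosen after its values were seen. It had 44.1, 36.9, 29.5 and 33.4 CPM in siNR, 24.9, 27.2, 29.3, 36.5 and 35.8 in siPC1, and 79.7, 66.3, 72.2 and 70.9 in siPC1+siMRTF-A. In the other arm it had 86.3, 94.2 and 94.9 CPM in siPC2 and 142, 132, 120 and 130 in siPC2+siMRTF-A. The siPC1 libraries overlapped with siNR, whereas every siPC2 library was already above both siNR and siPC1+siMRTF-A.

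In log2 terms ENSSSCT00000077905.2 was raised over siNR by 1.21 in siPC2 (SE 0.11, edgeR adjusted p = 1.28e-07) and by 1.71 in siPC2+siMRTF-A (SE 0.11, adjusted p = 7.37e-10). The rise on adding siMRTF-A was 0.74 larger in the siPC1 arm than in the siPC2 arm (SE 0.15, edgeR adjusted p = 0.0343). The call was lost with library totals in place of TMM factors (0.71) and on leaving out any one of 12 of the 20 libraries, while the value over all 20 such fits stayed between 0.67 and 0.82. Its counts were whole numbers in 0 libraries.

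How Salmon divided reads bears on the whole set. Whole counts in every library, which mark transcripts whose reads were not divided, were found in 3 members (3%) and in 1.42% of all transcripts above 1.3 CPM, and 55 members had whole counts in no library. A count of 0 in at least 1 library occurred in 18 members. The part of divided reads in the rise was not tested.

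Of the 3 members with undivided counts, 1 was called higher on adding siMRTF-A in both arms, from a low read share. It had 0.16, 0.62, 0.28 and 0.19 CPM in siNR, 0.23, 0.60, 0.36, 0.21 and 0.57 in siPC1, and 1.36, 0.79 and 1.25 in siPC2. With siMRTF-A it had 2.75, 2.20, 2.35 and 2.67 CPM in the siPC1 arm and 5.03, 4.72, 5.11 and 3.98 in the siPC2 arm, with no overlap with any group without it. Against siNR it was 1.69 higher on the log2 scale in siPC2 (edgeR adjusted p = 0.00352) and at 0.26 in siPC1 (adjusted p = 0.619). The other 2 members with undivided counts were not called on adding siMRTF-A in either arm, with edgeR adjusted p-values from 0.112 to 0.623. The rule used both comparisons and the order of libraries within each arm. Nothing is therefore read from these calls or from that order.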

How the data were processed

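RNA-Seq of LLC-PK1 cells was taken as the table of estimated counts per transcript that the authors deposited. Per the labels and the study's methods, reads were checked with FastQC 0.11.8, trimmed with Trim Galore 0.6.3 and quantified with Salmon 0.14.1 against coding sequences of the Sscrofa11.1 build. Only coding reads thus entered the counts, and Salmon split reads that match several transcripts by estimation. Which libraries were single-read or paired-end was not given in the sources used here. The authors also named HISAT2, whose output was not used here.

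The 46295 transcript identifiers were looked up in tables of 15623 and 30371 pig genes, and 0 matched, so gene lists, markers and sequences were not analysed here. Groups follow the treatment labels. The members and all lists were chosen with earlier results of these data known.

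Estimated counts were rounded to whole numbers. In R 4.3.3, edgeR 4.0.16 (filterByExpr by group, TMM factors, quasi-likelihood test of 1 model of the 5 groups) tested 27702 transcripts with Benjamini-Hochberg adjustment. Calls were made at an adjusted p no larger than 0.05, a log2 fold change beyond 0.6 either way and 50 or more normalized counts on average, thresholds that follow the study. Standard errors were derived from the F statistic. The fits were tested on simulated data. Library totals ran from 4421001 to 71007731 estimated counts (median 37523941), so siPC1 replicate 1 carries the most counting error. Alternatives were DESeq2 1.42.0, library totals, another low-count filter and no fold threshold. Further ones were the replicate number as a block (without siPC1 replicate A2), each library left out, and both shallow libraries left out. CPM used library totals, under which the median of all expressed transcripts lay between 0.13 and 0.19 above siNR (log2) in the silenced groups.

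Identifiers were printed for the members with the largest and second largest value of the smaller of their rises, and for those with the lowest and second lowest fold change of siPC2 against siNR. ENSSSCT00000088921.1 met both parts.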

Additional observations from a re-analysis of the deposited data

Results flagged for a closer look

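The effect of adding siMRTF-A was called different between the arms for ENSSSCT00000077905.2 in the main fit. It was larger in the siPC1 arm by 0.74 on the log2 scale (SE 0.15, edgeR adjusted p = 0.0343). The call was lost with library totals in place of TMM factors and on leaving out any one of 12 libraries. All libraries compared also entered the rule. This transcript was higher with siMRTF-A than without it in every library of both arms, as the rule demands. In the siPC2 arm it started from 86.3 to 94.9 CPM, above the 66.3 to 79.7 CPM it reached in siPC1+siMRTF-A. In 28 checks of groups of 4 or more libraries, which took the library totals, the members' summed and median values and the 4 transcripts with identifiers, 0 groups held a library that stood apart from the others by Dixon's criterion, where chance would give about 1 in 20.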

How the results depend on the processing

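Under the alternatives to the conditions of the rule, 85 members were shared with the 89 found with a pseudocount of 1, and 90 with the 97 found with TMM-scaled CPM. Including siPC1 replicate 1 in the order condition gave 92, leaving out single libraries gave 91 to 113, and dropping the order condition gave 437. With single libraries left out, between 83 and 99 of the 100 members were found again. Without a fold threshold the members called were 58 in siPC1 against siNR, 34 between the siMRTF-A groups and 43 in siPC1 against siPC2. Leaving out single libraries moved siPC2+siMRTF-A against siPC2 between 26 and 48. The difference between arms was called for 4 members with DESeq2, 0 with library totals, 2 without a fold threshold, 2 without both shallow libraries, and 0 to 3 with single libraries left out.

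Total counts of calls in the other comparisons stayed within 1.5 times the reported one under every alternative run, although members lower in siPC2+siMRTF-A than in siNR rose from 14 to 26 without a fold threshold. A fit with a replicate block for the number in the labels left out siPC1 replicate A2. It called 57 members in siPC2 against siNR, 37 in siPC1 against siNR, 65 in siPC1+siMRTF-A against siPC1 and 40 in siPC2+siMRTF-A against siPC2. The labels give these samples a common number and name no shared culture. Deviations from the group means correlated at 0.108 on average for the 36 same-numbered pairs (-0.127 to 0.552). For the 123 others, which include those with siPC1 replicate A2, the mean was -0.0237 (-0.482 to 0.436). Whether same-numbered samples were handled together is not known.

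Signs changed only in values that were not called. For ENSSSCT00000050577.2, siPC1+siMRTF-A against siNR ran from -0.02043 to 0.2442 with single libraries left out, and the difference between arms from -0.15 to 0.98, with -0.05751 when the number was a replicate block. For ENSSSCT00000053002.2, siPC1 against siPC2 ran from -0.11 to 0.20, with -0.10 under the replicate block. For ENSSSCT00000088921.1, the call of siPC2+siMRTF-A against siPC2 (3.5) was lost with DESeq2 (3.63) and on leaving out any one of 14 libraries. Without siPC2 replicate 4 all its remaining siPC2 libraries were at 0, and no fold is given. The cause was not tested. Depth limits members under 5 CPM most, since siPC1 replicate 1 holds only 4421001 counts.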
